A study of Mus musculus with 36 samples.

Results

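The Toll-like receptors and the endotoxin co-receptors are the proteins through which macrophages sense microbial material, and 10 of their genes were followed here across 10 groups of mouse lung macrophages. The members were Tlr1, Tlr2, Tlr4, Tlr5, Tlr6, Tlr7 and Tlr9, the co-receptors Cd14 and Ly96, and the adaptor Myd88. Each was matched by its symbol to array features annotated with exactly 1 gene, and each of the 10 had 1 such feature among the 28940 features analysed. The genes were named as a family and not by a measured value, though earlier results of these data were known when they were chosen.

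Macrophages were recovered by lung lavage from male C57Bl/6N Tac mice, depleted of Ly-6G-positive granulocytes, and profiled on 36 arrays of the Affymetrix Mouse Gene 1.0 ST type. Scnn1b-transgenic (Tg) mice express extra Scnn1b, which encodes a subunit of the sodium channel ENaC, in the club cells of the airway, so that the transgene is not aimed at the macrophages themselves, and wild-type (WT) littermates served as controls. Both genotypes were taken at postnatal day (PND) 0 with 3 arrays per genotype, at PND 3 with 4, at PND 10 with 4 and at PND 42 with 4 under specific-pathogen-free (SPF) housing, and at PND 42 with 3 under germ-free (GF) housing. An array at PND 0, 3 or 10 held cells pooled from 3 pups and an array at PND 42 held cells of a single mouse. GF mice came from a separate gnotobiotic facility, so that housing and colony cannot be told apart, and GF mice were taken at PND 42 only.

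Toll-like receptors recognise conserved microbial structures. At the cell surface TLR4 with its partner MD-2, the product of Ly96, binds bacterial endotoxin handed over by CD14, TLR2 senses lipopeptides as a pair with TLR1 or TLR6, and TLR5 senses flagellin. TLR7 and TLR9 sense RNA and DNA inside endosomes. All of the member receptors signal through the adaptor MyD88 to NF-kB and MAP kinases, and alveolar macrophages are the cells that meet inhaled microbes first.

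Values are deposited log2 intensities, in which a difference of 1 is a 2-fold change, and levels of different genes are not compared because each has its own probes. A gene was called where limma gave a Benjamini-Hochberg adjusted p under 0.05 over all 28940 features of a comparison, and it is said to have risen or fallen only then. Array medians lay between 3.723 and 4.055. Only Tlr1, with a mean of 3.59 over all arrays, lay below them, and the means of the other members ranged from 5.13 for Tlr9 to 9.39 for Tlr7. A fold change of Tlr1 understates the change for this reason.

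All 10 alveolar macrophage markers, among them Siglecf, Marco and Pparg, lay above 4.055 in every group, which matches the labelled cell type. At PND 0 the arrays also held RNA of other cells. The mean level of 9 epithelial markers was 8.67 to 9.49 on the PND 0 arrays against 5.60 to 6.42 on all later arrays, and that of 4 erythroid markers was 8.58 and 9.45 on 2 of the 3 Tg arrays of PND 0 and 3.95 to 4.50 on the other PND 0 arrays. Their part in the PND 0 values was not tested. In bulk RNA, fewer cells of a type and less RNA per cell cannot be told apart.

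Across the 5 comparisons of Tg with WT, Cd14 and Tlr5 were the members called most often, each in 4 of 5. Cd14 was higher in Tg mice in 2 and lower in 2, while Tlr5 was lower in all 4. Tlr2 was called higher in 1 and lower in 1. Tlr1, Tlr7, Ly96 and Myd88 were called in 1 each, and Tlr4, Tlr6 and Tlr9 in 0 of 5 by limma (at an unadjusted p under 0.05, Tlr4 in 1, Tlr6 in 1 and Tlr9 in 2).

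**Figure D1:**
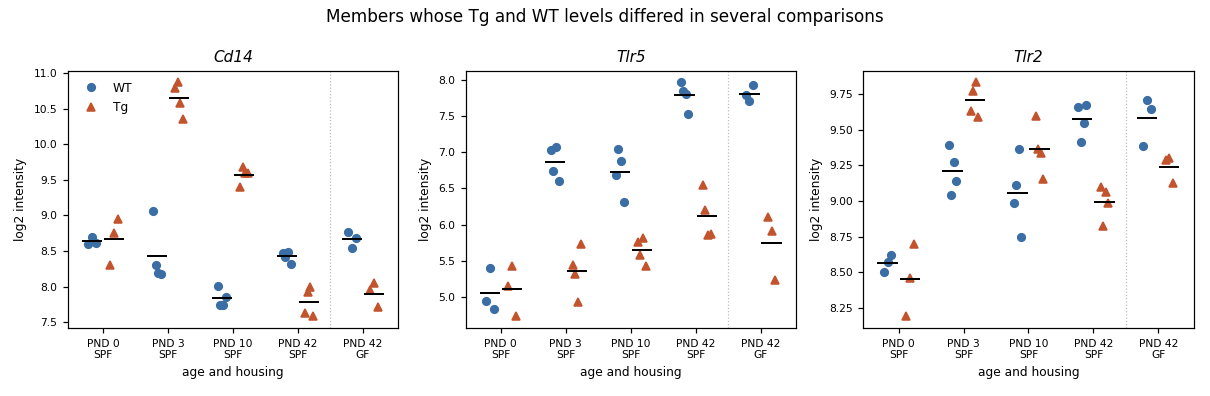
Log2 intensity (y axis) of Cd14, Tlr5 and Tlr2 on every array by age and housing (x axis), with WT arrays as circles, Tg arrays as triangles and black bars for group means; each panel has its own y axis. Cd14 lay above every WT array in Tg mice at PND 3 and 10 and below every WT array at PND 42, and Tlr5 lay below every WT array in Tg mice from PND 3 onward.

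CD14 is the surface and soluble protein that transfers endotoxin to TLR4. At PND 0 its level was 8.61, 8.70 and 8.61 on the WT arrays and 8.30, 8.76 and 8.95 on the Tg arrays, and the groups overlapped. At PND 3 it was 9.06, 8.31, 8.20 and 8.18 in WT mice and 10.79, 10.87, 10.58 and 10.35 in Tg mice. Every Tg array lay above every WT array, and the first WT array stood above the other WT arrays. The difference was 2.21 (SE 0.15) on the log2 scale, or 4.63-fold (95% interval 3.74 to 5.73, limma adjusted p = 1.53e-10), and 5.35-fold without that WT array.

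At PND 10 Cd14 was 8.01, 7.74, 7.75 and 7.85 in WT mice against 9.40, 9.69, 9.59 and 9.60 in Tg mice. The groups again did not overlap, and the difference was 3.32-fold (2.68 to 4.11, limma adjusted p = 2.34e-08). At PND 42 in SPF housing the order was turned, with 8.48, 8.42, 8.48 and 8.33 in WT mice and 7.63, 7.92, 7.99 and 7.59 in Tg mice. Cd14 was 1.57-fold lower in Tg mice there (1.26 to 1.94, limma adjusted p = 0.00777). GF mice showed the same order, with 8.78, 8.55 and 8.68 in WT mice and 7.95, 8.05 and 7.72 in Tg mice, a 1.70-fold lower level (1.33 to 2.18, limma adjusted p = 0.00616). This last call was lost without the third Tg array of the GF mice (-0.67, limma adjusted p = 0.0692).

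The change of direction was itself tested, though the tests against PND 10 and of PND 3 against PND 0 were chosen after values were seen. The Tg effect on Cd14 at PND 42 SPF was lower than that at PND 3 by 2.86 on the log2 scale (SE 0.21, limma adjusted p = 1.55e-09) and lower than that at PND 10 by 2.38 (SE 0.21, limma adjusted p = 7.13e-08). Between PND 0 and PND 3 the Tg effect rose by 2.18 (SE 0.23, limma adjusted p = 6.95e-07). In the order of group means, Tg at PND 3 (10.65) and Tg at PND 10 (9.57) stood above all others with no overlap between them or with the next group, Tg at PND 0 (8.67). The next 4 groups, from GF WT mice (8.67) down to SPF WT mice of PND 42 (8.43), each overlapped the next of the 4. The arrays of those SPF WT mice all lay above the 3 lowest groups, GF Tg mice (7.90), WT mice of PND 10 (7.84) and Tg mice of PND 42 SPF (7.78), which overlapped in that order.

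TLR5 is the receptor for flagellin, the protein of bacterial flagella. Its level at PND 0 was 4.95, 5.39 and 4.83 in WT mice and 5.15, 5.42 and 4.73 in Tg mice, with overlapping groups. At PND 3 it was 7.03, 6.74, 7.08 and 6.61 in WT mice and 5.44, 5.31, 4.93 and 5.74 in Tg mice. No arrays overlapped, and Tlr5 was 2.85-fold lower in Tg mice (2.16 to 3.77, limma adjusted p = 8.39e-06). At PND 10 the WT arrays read 6.69, 7.05, 6.88 and 6.31 and the Tg arrays 5.75, 5.58, 5.81 and 5.43, a 2.13-fold lower level (1.61 to 2.81, limma adjusted p = 0.00137) with no overlap.

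At PND 42 in SPF housing Tlr5 was 7.97, 7.85, 7.81 and 7.53 in WT mice and 6.55, 6.20, 5.85 and 5.87 in Tg mice. In GF housing it was 7.80, 7.71 and 7.93 in WT mice and 6.11, 5.91 and 5.23 in Tg mice. Tg levels were below every WT level in both, by 3.19-fold in SPF (2.41 to 4.22, limma adjusted p = 7.32e-07) and 4.17-fold in GF mice (3.02 to 5.77, limma adjusted p = 3.04e-07). Adult WT mice of both housings stood above all other groups, and the Tg means from PND 3 onward (5.35 to 6.12) lay nearer to the PND 0 means (5.06 and 5.10) than the WT means did (6.73 to 7.81). The Tg effect at PND 3 was lower than that at PND 0 by 1.56 (SE 0.30, limma adjusted p = 0.00296). This test was chosen after values were seen, and its call was lost in a fit on the compared groups alone.

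TLR2 pairs with TLR1 or TLR6 to bind bacterial lipopeptides. Tlr2 at PND 3 was 9.40, 9.04, 9.27 and 9.14 in WT mice and 9.63, 9.78, 9.83 and 9.59 in Tg mice, 1.41-fold higher with no overlap (1.19 to 1.67, limma adjusted p = 0.0106). This call was lost without the second WT array (0.44, limma adjusted p = 0.0637). At PND 42 SPF it was 9.66, 9.42, 9.55 and 9.68 in WT mice and 9.10, 8.82, 9.06 and 8.99 in Tg mice, -0.58 on the log2 scale with no overlap (SE 0.12, limma adjusted p = 0.00195). Its Tg effect at PND 42 SPF was thus below that at PND 3 by 1.08 (SE 0.17, limma adjusted p = 0.000269) and below that at PND 10 by 0.89 (SE 0.17, limma adjusted p = 0.00539). In GF mice the difference was -0.34 (limma adjusted p = 0.192), with no overlap between the groups.

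Tlr1 and Tlr6, neighbours on chromosome 5 in RefSeq (GRCm38.p6), encode the alternative partners of TLR2. Tlr1 at PND 3 was 4.64, 3.61, 3.61 and 3.56 in WT mice, at or near the array medians apart from the first array, and 4.88, 5.05, 5.62 and 4.65 in Tg mice. It rose by 1.19 on the log2 scale (SE 0.28, limma adjusted p = 0.0101), 2.29-fold, and by 1.46 without that first WT array. Without the third Tg array the call was lost (1.00, limma adjusted p = 0.0641). In every other group the mean of Tlr1 lay between 2.95 and 3.90, and in GF mice Tg arrays at 3.99, 3.49 and 4.22 lay above WT arrays at 3.06, 2.81 and 2.98 without a call (0.95, limma adjusted p = 0.105). Tlr6 was not called in a comparison of genotypes, and its differences ranged from -0.88 at PND 0 to 0.39 at PND 3.

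TLR4 is the endotoxin receptor, and Tlr4 was called in no comparison of genotypes. Tg minus WT differences of Tlr4 were between -0.29 and -0.07 at the 5 comparisons, and the interval at PND 42 SPF, from -0.33 to 0.19, holds changes of at most 1.25-fold. Ly96, which encodes its partner MD-2, was called lower in Tg mice at PND 0, with 7.76, 7.10 and 6.36 on WT and 5.24, 6.49 and 5.94 on Tg arrays (-1.18, SE 0.27, limma adjusted p = 0.0101). Those groups overlapped, and the call was lost without the first WT array (-0.84, limma adjusted p = 0.0994) or the first Tg array (-0.86, limma adjusted p = 0.124), the latter one of the pair with erythroid RNA. At PND 42 Ly96 differed by 0.61 in SPF (limma adjusted p = 0.182) and 0.58 in GF mice (limma adjusted p = 0.329). In GF mice its Tg arrays (8.01 to 8.24) all lay above the WT arrays (7.35 to 7.83), while in SPF mice the arrays overlapped.

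Of the endosomal receptors, Tlr7, whose product senses single-stranded RNA, was called lower in Tg mice at PND 0 (-0.62, SE 0.17, limma adjusted p = 0.0359), with overlapping arrays, and the call was lost without either the first or second WT array or the first Tg array. At PND 42 SPF the Tg arrays of Tlr7 (9.59 to 10.03) all lay above the WT arrays (9.31 to 9.56), and the difference of 0.30 was not called. Tlr9, whose product senses unmethylated DNA, read 5.35, 5.09, 6.05 and 5.80 in WT and 6.18, 6.73, 7.03 and 6.15 in Tg mice at PND 3. The Tg arrays lay above the WT arrays, and the difference of 0.95 (SE 0.34) missed the threshold (limma adjusted p = 0.139). Myd88, the shared adaptor, was called at PND 42 SPF only, with 8.48, 8.92, 8.73 and 8.83 in WT and 8.48, 8.07, 8.13 and 8.16 in Tg mice (-0.53, SE 0.15, limma adjusted p = 0.0419). Leaving out any of 6 of its 8 arrays lost that call.

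**Figure D2:**
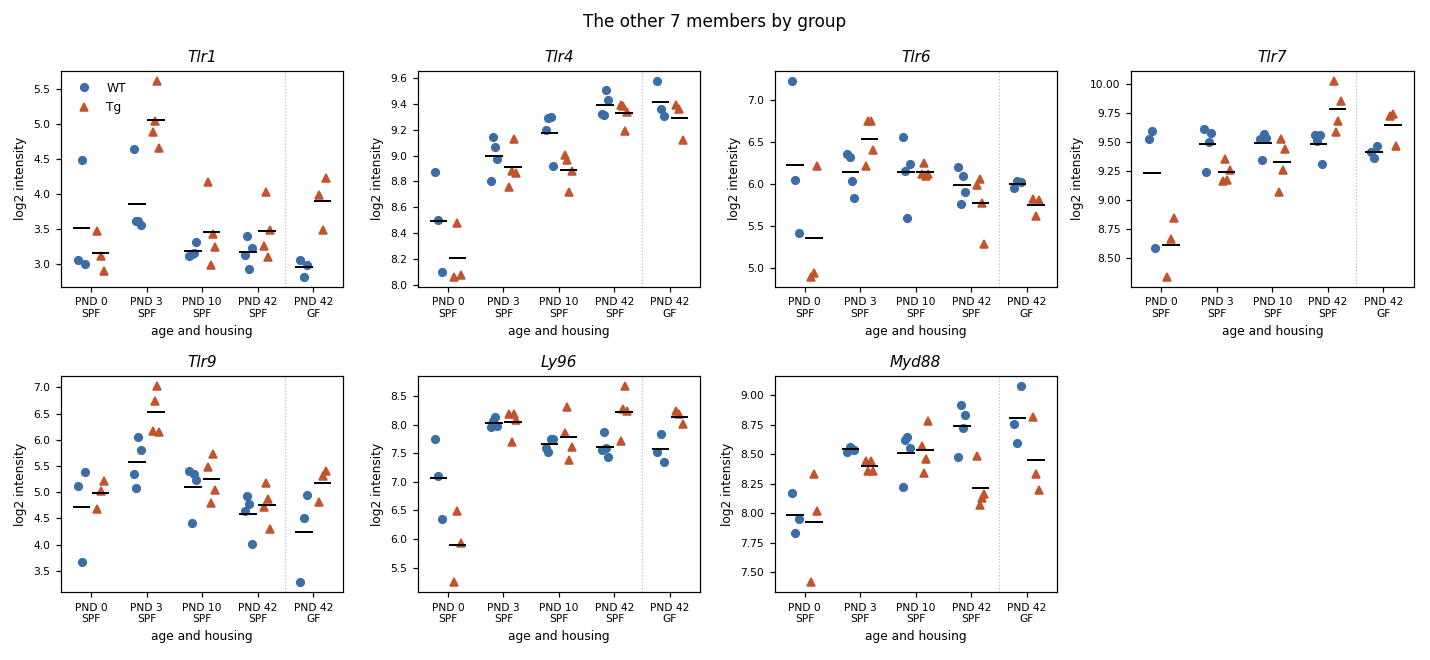
Log2 intensity (y axis) of the other 7 members on every array by age and housing (x axis), with WT arrays as circles, Tg arrays as triangles and black bars for group means; each panel has its own y axis. Tg arrays of Tlr1 and Tlr9 lay above the WT arrays at PND 3, and the Ly96 arrays of PND 0 lay mostly below those of later ages.

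**Figure D3:**
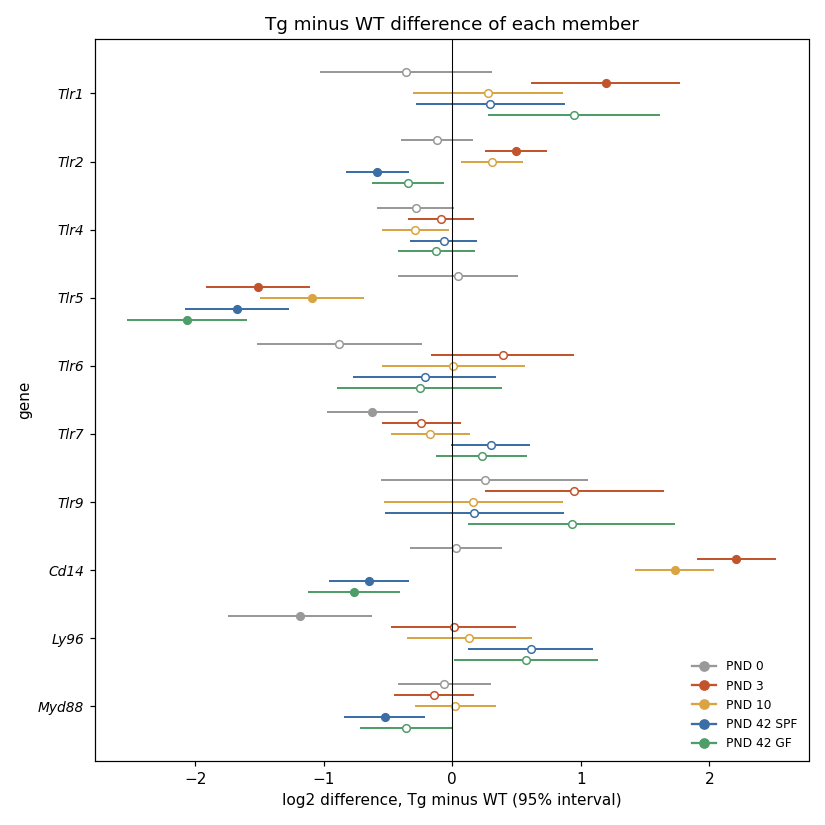
Tg minus WT difference on the log2 scale (x axis) of each member (y axis) at each age under SPF conditions and for the germ-free adults, with 95% intervals from limma; filled points passed the adjusted p of 0.05 and open points did not. Cd14 lies right of 0 at PND 3 and 10 and left of it at PND 42, and Tlr5 lies left of 0 at all but PND 0.

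Over the family, 2 of 10 members were called at PND 0 (0 higher, 2 lower), when 4.33% of all features were. At PND 3 it was 4 of 10 (3 higher, 1 lower) against 4.05% of features, at PND 10 2 of 10 (1 higher, 1 lower) against 1.57%, at PND 42 SPF 4 of 10 (0 higher, 4 lower) against 4.49%, and at PND 42 GF 2 of 10 (0 higher, 2 lower) against 4.91%. The shares of all features include dim ones. The median difference of the members was 0.20 at PND 3 and -0.14 at PND 42 SPF, beside 0.00107 and -0.0196 over all features. Groups did not overlap for 0 of 10 members at PND 0, 6 at PND 3, 2 at PND 10, 4 at PND 42 SPF and 6 at PND 42 GF, where 10.9%, 10.5%, 7.08%, 11.2% and 21.3% of all features did not. Those at PND 42 SPF were Tlr2, Tlr5 and Cd14, called lower in Tg mice, and Tlr7, whose Tg arrays lay above the WT arrays without a call.

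The 2 tests of the Tg effect at PND 42 SPF against that at PND 3 and PND 10 each called Tlr2 and Cd14 only (2 of 10), where 1.23% and 0.639% of features were called. The test of PND 3 against PND 0 called 3 of 10, Tlr1 and Cd14 higher and Tlr5 lower, against 3.27% of features. The call of Tlr1 was lost without any of 9 of its 14 arrays, and that of Tlr5 in a fit on the compared groups alone. The comparisons share arrays and so are not independent of each other.

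Neutrophil and monocyte transcripts moved with genotype at PND 3. The mean level of 14 neutrophil markers was 6.33 to 7.42 on Tg arrays and 4.93 to 6.07 on WT arrays, and 5 of 14 were called higher. The called genes were Csta3 (5.16 higher on the log2 scale), Stfa3 (4.65), S100a9 (3.00), Mmp9 (1.95) and Ltf (0.90), and 13 of the 14 differences lay above 0. Those of the granule genes Camp (0.50), Elane (0.09) and Mpo (0.04) were not called. The mean of 8 monocyte markers was 7.02 to 7.87 on Tg and 5.99 to 7.35 on WT arrays, with 4 called higher, Itgam among them, and 1 lower, Ccr2. The first WT array had the highest WT value for both lists (6.07 and 7.35), as it had for Cd14 and Tlr1. Without it the same members were called at PND 3, Tlr1, Tlr2 and Cd14 higher and Tlr5 lower. Of 10 alveolar macrophage markers, 3 were called lower in Tg mice at PND 3, Siglecf (-1.27), Pparg (-0.88) and Mrc1 (-0.59), and 0 higher. Their mean level was 8.80 to 9.17 on Tg and 9.27 to 9.33 on WT arrays, with no overlap, beside the lower Tlr5. The part of these cells in the member differences was not tested.

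At PND 0, where Tlr7 and Ly96 were lower in Tg mice, the same 3 alveolar macrophage markers were called lower, and all 10 differences lay below 0 with a median of -0.50. Their mean level was 7.81 to 8.44 on Tg and 8.39 to 8.96 on WT arrays. At PND 10, where Cd14 was higher and Tlr5 lower, the monocyte markers averaged 6.49 to 6.68 on Tg and 5.99 to 6.31 on WT arrays without overlap, and 1 of 8 was called, Itgam (2.08). The neutrophil markers overlapped there, at 4.57 to 5.31 on Tg and 4.95 to 5.24 on WT arrays, with 1 of 14 called lower, Csf3r (-1.27). Alveolar macrophage markers overlapped too (9.29 to 9.82 and 9.49 to 9.98), with Krt79 (-1.39) and Pparg (-0.55) called lower. The part of these shifts in the member differences was not tested.

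At PND 42 the neutrophil markers averaged 4.59 to 5.04 in Tg and 4.30 to 4.42 in WT mice of SPF housing, and 4.99 to 5.63 and 4.39 to 4.45 in GF mice. The monocyte markers averaged 5.91 to 6.13 in Tg and 5.64 to 5.89 in WT mice of SPF housing, and 6.37 to 6.83 and 5.66 to 5.80 in GF mice. In SPF mice 1 of 8 was called higher and 0 lower. There 4 of the 8 differences lay above 0, with a median of -0.13 and a highest of 3.28, so that mean was not a shift of the whole list. In GF mice 2 of 8 were called higher and 0 lower, and 7 differences lay above 0, with a median of 0.30 and a highest of 4.75. T cell markers were called higher in Tg mice for 5 of 7 in GF and 1 of 7 in SPF mice. Of 9 dendritic cell markers, 4 were called higher in SPF and 2 in GF mice, and 0 lower. Their mean level was 3.85 to 4.30 in Tg and 3.61 to 3.74 in WT mice of SPF housing, and 3.87 to 4.62 in Tg and at most 3.72 in WT mice of GF housing, with no overlap in either. Alveolar macrophage markers averaged 10.04 to 10.16 in Tg and 9.97 to 10.03 in WT mice of SPF housing, with no overlap. In GF mice they overlapped, at 9.93 to 10.10 in Tg and 9.89 to 9.97 in WT mice. In SPF mice 1 of 10 was called higher and 1 lower, and in GF mice 1 higher and 0 lower. The part of these cells in the lower Tlr2, Tlr5 and Cd14 was not tested.

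Housing was compared within each genotype at PND 42, to ask what a life without live bacteria does to the receptors that detect them. In WT mice 0 of 10 members were called by limma, with 0 at an unadjusted p under 0.05, where 0.0657% of all features were called. In Tg mice 0 of 10 were called and 0 reached an unadjusted p under 0.05, where 0.142% of features were called. The GF minus SPF differences ran from -0.34 (Tlr9) to 0.24 (Cd14) in WT mice and from -0.37 (Tlr5) to 0.43 (Tlr1) in Tg mice.

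A difference that missed the threshold does not show equal levels, and the intervals bound what could have been missed. Tlr4 differed by 0.02 in WT mice (95% interval -0.26 to 0.30) and by -0.03 in Tg mice (-0.31 to 0.24). Tlr5 differed by 0.02 in WT mice (-0.41 to 0.46) and by -0.37 in Tg mice (-0.80 to 0.07), and Cd14 by 0.24 (-0.09 to 0.58) and 0.12 (-0.21 to 0.46). The widest interval belonged to Tlr9, from -1.10 to 0.41 in WT mice. The most extreme bound of any member was a 2.14-fold change in WT and a 2.25-fold change in Tg mice. Each interval covers its own member and was not adjusted for covering all members at once.

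Groups did not overlap for Cd14 in WT mice, where GF arrays at 8.78, 8.55 and 8.68 lay above SPF arrays at 8.48, 8.42, 8.48 and 8.33, and for Tlr2 in Tg mice, where GF arrays at 9.29, 9.30 and 9.13 lay above SPF arrays at 9.10, 8.82, 9.06 and 8.99. That is 1 of 10 members in each genotype, beside 7.83% and 8.07% of all features. The interaction, whether the Tg effect differed between GF and SPF mice, was called for 0 of 10 members (0 at an unadjusted p under 0.05), with 0.00346% of features called. It was -0.39 for Tlr5 (-1.01 to 0.23), -0.12 for Cd14 (-0.59 to 0.35) and 0.24 for Tlr2 (-0.13 to 0.61).

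**Figure D4:**
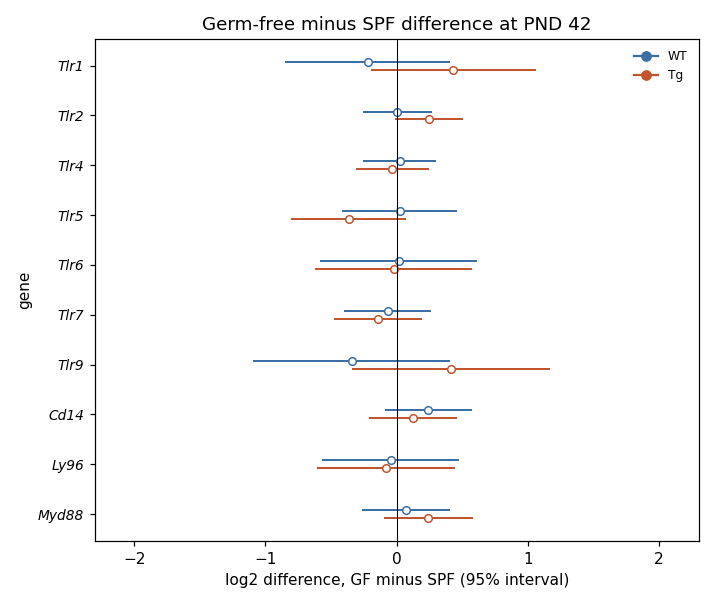
Germ-free minus SPF difference on the log2 scale (x axis) of each member (y axis) at PND 42 in WT and Tg mice, with 95% intervals from limma; all points are open because none passed the adjusted p of 0.05. All 20 intervals include 0, and those of Tlr1 and Tlr9 are the widest.

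The members were then compared between ages within each genotype. From PND 0 to PND 3 the WT macrophages gained Tlr5 (1.81, SE 0.21), Ly96 (0.96, SE 0.26), Tlr2 (0.65, SE 0.13), Myd88 (0.56, SE 0.17) and Tlr4 (0.51, SE 0.14), with limma adjusted p of 0.011 or less. That was 5 of 10 higher and 0 lower, where 26.0% of features were called, so the step was a large one for the whole array. Tlr4 and Ly96 lost their calls without the third WT array of PND 0, and Myd88 lost it without the second. Tg macrophages rose for 9 of 10 members over the same step, by 0.48 (Myd88) to 2.16 (Ly96), where 30.0% of features were called, and Tlr5 alone missed the threshold (0.25, limma adjusted p = 0.44). The Myd88 call was lost without the first Tg array of PND 0 (0.23, limma adjusted p = 0.369) or without the first or the third Tg array of PND 3 (limma adjusted p = 0.0525 and 0.0532). Epithelial markers fell at this step, 8 of 9 in WT and 9 of 9 in Tg mice, and their part in the rises was not tested.

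From PND 3 to PND 10 limma called 0 of 10 members in WT mice (2 at an unadjusted p under 0.05), with 0.131% of features called. In Tg mice Tlr1 fell by 1.59 (SE 0.28) and Cd14 fell by 1.08 (SE 0.15), 2 of 10 beside 1.45% of features. The 14 neutrophil markers fell at this step in Tg mice for 8 and rose for 0, and their part was not tested.

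Between PND 10 and PND 42 Tlr2 (0.52, SE 0.12), Tlr5 (1.06, SE 0.20) and Cd14 (0.59, SE 0.15) rose in WT mice, 3 of 10 beside 2.50% of features. The Cd14 call was lost when any of 7 of the 8 arrays was left out, and the Tlr2 call without the fourth array of either age. Cd14 fell by 1.79 (SE 0.15) in Tg mice and Tlr4 rose by 0.43 (SE 0.13), 2 of 10 beside 4.61% of features. That call of Tlr4 was lost without any of 6 of the 8 arrays.

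The rest of the pathway was read from 5 lists, set beside the members. Of all features, 4.33% were called at PND 0, 4.05% at PND 3, 1.57% at PND 10, 4.49% at PND 42 SPF and 4.91% at PND 42 GF. Of 12 other Toll-like receptors, chaperones and co-receptors, 0 were called higher and 2 lower in Tg mice at PND 3, Ly86 (-0.99), which encodes the MD-1 partner of CD180, and Tlr8 (-0.72), a receptor for RNA. At PND 42 SPF 2 were higher and 0 lower, Cd36 (1.01), a scavenger receptor that assists TLR2, and Tlr13 (0.68), which senses bacterial ribosomal RNA. In GF mice Cd36 (1.20) and Tlr11 (0.73) were higher, and at PND 10 0 of 12 were called. Among 16 adaptors and kinases 1 was higher at PND 3, Ikbke (1.36), a kinase of the interferon branch, and 2 at PND 42 SPF, Ikbke (1.22) and Irak2 (0.69). In GF mice Peli1 (-0.67) and Ikbkb (-0.53) were lower.

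Feedback inhibitors of the pathway were listed as brakes, together with Nfkbiz, whose product is not only an inhibitor. At PND 3, 10 of 14 were higher in Tg mice and 0 lower, with a median difference of 1.46 against 0.00107 over all features. Dusp1, a phosphatase of MAP kinases, was 2.67 higher, Socs3, an inhibitor of cytokine signalling, 2.49, Nfkbiz, an atypical IkB protein, 2.34, and Tnip3, a partner of A20, 2.12. At PND 10 6 were higher and 1 lower, Sigirr (-0.60), and at PND 42 3 were higher in SPF and 5 in GF mice, led by Tnip3 (2.63 and 3.47).

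Of the inflammatory target genes, which NF-kB and MAP kinases switch on, 15 of 19 were higher at PND 3 and 0 lower, with a median of 2.37. They were led by Saa3 (4.68), an acute-phase protein, the neutrophil chemokines Cxcl1 (3.96) and Cxcl3 (3.68), and Acod1 (3.70), which makes itaconate. At PND 10 8 of 19 were higher, at PND 42 SPF 7 and at PND 42 GF 8, with 0 lower in each, and Ccl3, a monocyte chemokine, was 3.59 and 2.67 higher in adult SPF and GF mice. Of 9 transcription factors, 4 were higher at PND 3 (Relb, 1.34; Nfkb2, 1.15; Fos, 0.92; Jun, 0.91), and Jun alone at PND 10 (0.69), PND 42 SPF (1.09) and PND 42 GF (1.04). In adult SPF Tg mice 4 members were called lower and 7 target genes higher, where 4.49% of all features were called in either direction. In GF Tg mice 2 members were lower and 8 target genes higher, beside 4.91% of features. Of these members, Myd88 in SPF and Cd14 in GF mice lost their calls when certain single arrays were left out. Housing called 0 genes in each of these lists in either genotype, where 0.0657% of all features were called in WT and 0.142% in Tg mice. At an unadjusted limma p under 0.05, GF and SPF Tg mice differed for 7 of 19 target genes. Of these 19 differences 14 lay above 0, with a median of 0.27 beside 0.00152 over all features. In WT mice it was 1 of 19. The 0 calls thus do not show equal levels.

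Receptors of other families were a sixth list, of 12. At PND 0, 0 were called higher and 1 lower in Tg mice, the mannose receptor Mrc1 (-0.42). At PND 3 it was 3 higher and 3 lower. Clec4e, the receptor Mincle, was 1.99 higher, with Nlrp3 (0.78), an inflammasome sensor, and Clec4n (0.57), the receptor Dectin-2. Nod1 (-0.95), a cytosolic sensor of peptidoglycan, Mrc1 (-0.59) and Ddx58 (-0.54), the RNA sensor RIG-I, were lower. At PND 10, 3 were higher and 0 lower, Clec4e (3.47), Msr1 (1.18), a scavenger receptor, and Clec4n (0.62). At PND 42 Msr1 (1.31 and 1.25) and Cd209a (0.51 and 0.66) were higher in SPF and GF mice, and Nlrp3 (-0.80) was lower in GF mice, which made 2 higher and 0 lower in SPF and 2 higher and 1 lower in GF mice. The mannose receptor is on the list of alveolar macrophage markers as well, and Cd209a on that of dendritic cells.

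**Figure D5:**
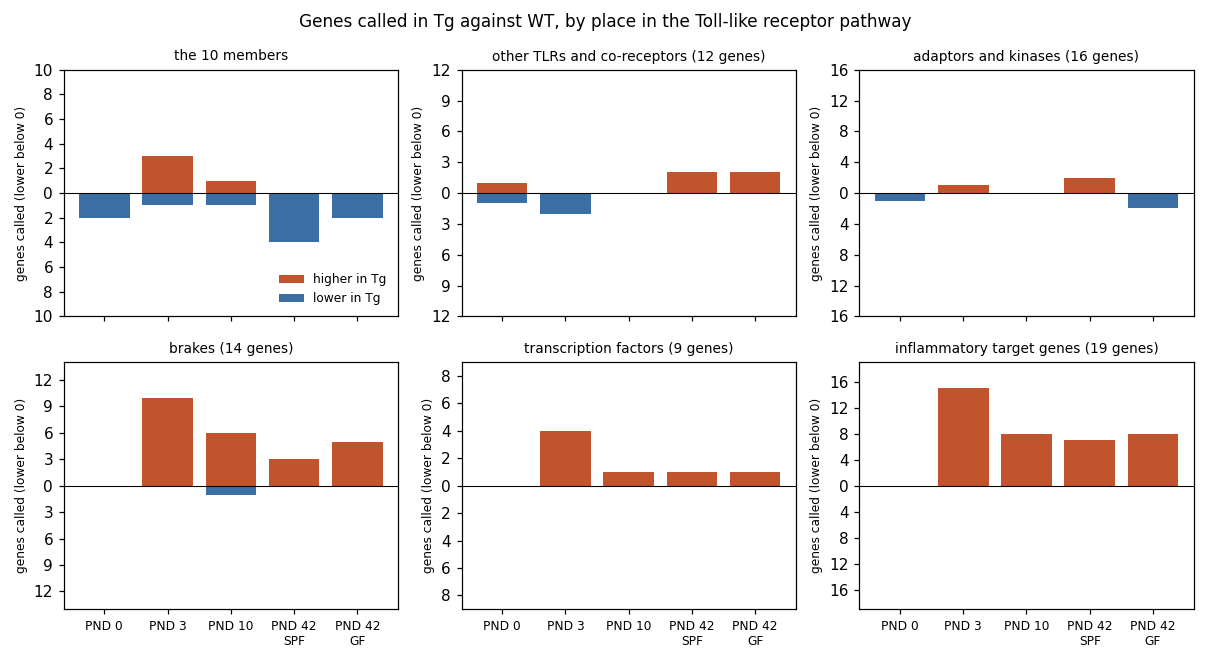
Number of genes called in Tg against WT (y axis, higher above 0 and lower below) at each age and housing (x axis) for the 10 members and 5 lists of the Toll-like receptor pathway; each panel's y axis spans its list's size. Brakes and inflammatory target genes were called mostly higher at every age after PND 0, while the members were called in both directions.

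Genes most like each member were found over the 30 arrays of PND 3, 10 and 42, among 11288 genes, by Pearson's r. These arrays share ages and genotypes, so r describes shared group differences. Cd14 was most like Irak3 (r = 0.89), a brake of the same pathway, Clec4e (0.89) and Carmil1 (0.89). Tlr5 was most like Rara (0.93), a retinoic acid receptor, Cidec (0.92), a lipid droplet protein, and Ncoa1 (0.92). Tlr1 was most like Ifitm1 (0.93), Chil1 (0.91) and Lcn2 (0.90), a siderophore-binding protein of neutrophils and epithelium. Tlr4 was closest to Irs2 (0.91), Tlr2 to Abi1 (0.82), Tlr9 to Pstpip1 (0.82), Tlr7 to Norad (0.80), Tlr6 to Lrrc25 (0.74), Ly96 to Hpse (0.73) and Myd88 to Ppp1r9a (0.73).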

How the data were processed

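RNA (12 ng per array) from Ly-6G-depleted lavage macrophages was amplified with the Ovation Pico WTA system and hybridised to 36 arrays. The authors deposited log2 intensities, made with Partek (6.5 in the submitters' notes) and RMA, with 1 value per feature and array. Of 35556 features, 6616 without annotation and numbered below the first annotated feature were presumed to be controls and left out. No column was unused (0 columns), and no 2 arrays held identical values. Arrays carry no read depth, and their number limits the precision.

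Groups came from the labelled genotype, age and housing. Linear models with 1 mean per group were fitted to all 36 arrays with limma 3.58.1 in R 4.3.3 (eBayes, two-sided), and 17 contrasts were drawn, 2 of them (the Tg effect at PND 42 SPF against PND 10 and at PND 3 against PND 0) chosen after values were seen. The labels call the arrays biological replicates but do not say which mice they came from. An exact test of 3 arrays against 3 cannot go below p = 0.1, so the PND 0 and GF calls of genotype rest on the model. Fitted to the compared groups alone, it called 0 members at PND 0 and 3 in GF mice. The procedure was tested on simulated data.

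The members, the gene lists and the comparisons were chosen with earlier results of these data known. Text names all members, up to 4 called genes of each list with the largest change, the 3 genes most like each member (all 3 for Cd14, Tlr5 and Tlr1, otherwise the first) and marker genes. Of the listed genes, 17 had no feature with 1 symbol, among them Irak1, Irak4 and Nfkb1. Alternatives were a fit on the compared groups, no moderation, a trend and robust prior, array weights, repeated quantile normalization, median centring, a filter on dim features, all features kept, blocking on replicate number and omission of single arrays. Added after the data were seen were fits without the PND 0 arrays, without replicate 3 of both genotypes at PND 0 and, for the list counts, without WT replicate 1 at PND 3. Ly6g is not analysed here.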

Additional observations from a re-analysis of the deposited data

Results flagged for a closer look

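On the arrays of WT mice at PND 3, replicate 1 stood far from the other replicates for Tlr1 (4.64) and for Cd14 (9.06). Such a gap was looked for in 60 sets of 4 arrays and found in these 2. The limit used is passed by about 1 in 20 independent sets, but these sets share arrays, so that rate cannot tell whether the gaps are due to chance. Both values came from the array whose neutrophil and monocyte markers were also the highest among WT arrays of that age.

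The Tg effect differed between ages for 4 members by the model's own test. Of these tests, PND 42 SPF against PND 10 and PND 3 against PND 0 were chosen after values were seen. Between PND 42 SPF and PND 3 it was lower for Tlr2 (-1.08) and Cd14 (-2.86), and between PND 42 SPF and PND 10 lower for Tlr2 (-0.89) and Cd14 (-2.38). Between PND 3 and PND 0 it was higher for Tlr1 (1.55) and Cd14 (2.18) and lower for Tlr5 (-1.56). These calls of Tlr1 and Tlr5 were lost in a fit on the compared groups alone.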

How the results depend on the processing

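Of 42 calls of members over the 17 comparisons, 27 held under every alternative and 31 under every one but leaving out an array. A called value changed sign under none of them. The sign of values called in neither fit changed 127 times. Values not called passed the threshold 39 times under an alternative, among them Tlr1 in GF mice without the PND 0 arrays (0.95, limma adjusted p = 0.0429) and Tlr6 at PND 0 without replicate 3 of both genotypes (-1.72, limma adjusted p = 0.000152). Fits on the compared groups alone called 0 members at PND 0 (2 in the fit to all arrays), 3 from PND 0 to 3 in WT mice (5) and 1 for the Tg effect at PND 3 against PND 0 (3), and array weights called 0 at PND 0. For the Tg effect at PND 3 against PND 0, 5 were called without dim features and 7 without replicate 3 of both genotypes at PND 0. From PND 10 to 42 in Tg mice repeated quantile normalization called 4 and all features kept 1 (2). Leaving out 1 array at a time gave 0 to 4 members at PND 0 (4 without WT replicate 3, 0 without WT replicate 1 or Tg replicate 1), 2 to 6 for PND 3 against PND 0, 1 to 3 from PND 10 to 42 in WT mice, 1 to 2 there in Tg mice and 1 to 2 for genotype in GF mice. Housing called 0 members under every alternative run. The cause of these changes was not tested.

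The labels do not say whether arrays of the same replicate number were paired, and the correlations of their deviations cannot settle it. Same-numbered arrays of the 2 genotypes correlated between -0.126 and 0.244 in their deviations from the group means, over 0.1 in 1 of 18 pairs, and 6 of 18 correlated best with their own number. With a replicate block the calls were 2, 4, 2, 3 and 2 for genotype at PND 0, 3, 10, 42 SPF and 42 GF, and Myd88 at PND 42 SPF was no longer called (-0.53, limma adjusted p = 0.0608). The choice among several features of a gene gave no alternative, since each member had 1 feature.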
